A study of Mus musculus with 8 samples.

Results

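The DNA replication genes followed here are 44 genes chosen by name from a table of 23413 mouse genes. Their products license origins, unwind and copy DNA, supply deoxynucleotides and rebuild chromatin behind the fork. All 44 were found, and all 44 passed the minimum used for testing (10 normalised counts, reached by 2 or more libraries), as did 11415 genes in all. Of the 44, 2 (Orc1 and Mcm10) passed only with the bone-marrow macrophage libraries. RNA was sequenced from 3 kinds of sorted mouse cell: repopulating microglia (n = 3), bone-marrow macrophages (n = 3) and wild-type microglia (n = 2). The series title places them in work on interleukin-1 signalling in the self-renewal of microglia, the resident macrophages of the brain. The strain label was DTRmg for the repopulating microglia and the bone-marrow macrophages, and DTR for the wild-type microglia, so strain and group cannot be told apart in a comparison with wild type. One protocol text stood on all 8 samples: tamoxifen at postnatal days 12 and 14 (2 mg, subcutaneous), 500 ng diphtheria toxin into the abdomen 3 times to deplete microglia, papain digestion of brain, a Percoll gradient and a flow-cytometric sort. The labels give neither age nor time after depletion, nor what drives the toxin receptor, nor whether the bone-marrow macrophages came from marrow or from brain, nor whether replicates were separate animals. The p-values therefore measure only the spread between these libraries.

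DNA replication begins in G1, when the origin recognition complex, Cdc6 and Cdt1 load the MCM hexamer onto DNA. In S phase Cdc45 and the GINS complex turn the hexamer into an active helicase, and polymerases alpha, delta and epsilon copy the strands with the sliding clamp PCNA and its loader RFC. Most of these genes are transcribed by E2F factors late in G1, so their transcripts are low in resting cells and high in cycling ones. Adult microglia are long-lived cells that divide rarely, and they multiply after depletion.

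Total reads per library ran from 5918944 to 12476427. Marker genes of microglia, 12 of 12 detected, summed to 335001 to 395155 normalised counts in repopulating microglia, 137758 to 149957 in bone-marrow macrophages and 511193 to 548538 in wild-type microglia. Markers of neutrophils and their precursors, 11 of 11 detected, summed to 1593 to 3036 in repopulating microglia, 800 to 1339 in bone-marrow macrophages and 26104 to 28490 in wild-type microglia; of these, Ctsg was at 0 in all repopulating libraries. Monocyte markers, 5 of 6 in the table, summed to 264 to 680, 1077 to 1678 and 3176 to 5425 in the same order of groups. Astrocyte markers summed to 238 to 2095, 65.9 to 101 and 1066 to 6429, so the wild-type libraries differed widely. B-cell markers summed to 59.0 to 187, 65.4 to 122 and 307 to 347, and endothelial ones to 221 to 472, 68.8 to 82.9 and 404 to 612. Oligodendrocyte markers differed less, at 1325 to 1611, 1127 to 1274 and 1271 to 1405. Neutrophil precursors are dividing cells, and the part of these other cells in any comparison with wild type was not tested. Fewer cells of a type and less RNA per cell cannot be told apart in such bulk samples. Repopulating library 3 stood apart: the SD of its log2 differences over all tested genes was 0.87 against library 1 and 1.01 against library 2, whereas libraries 1 and 2 differed by 0.52, the bone-marrow macrophage libraries by 0.40 to 0.43 and the wild-type libraries by 0.48.

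The 44 replication genes were high in bone-marrow macrophages and low in both kinds of microglia. Their summed normalised counts were 5887, 6265 and 5127 in repopulating microglia, 19750, 17321 and 20375 in bone-marrow macrophages, and 6885 and 5896 in wild-type microglia. The sum in each bone-marrow macrophage library was above that in every microglial library, while repopulating and wild-type libraries overlapped. As a share of all reads the genes took 0.0671% ± 0.0041 in repopulating microglia, 0.266% ± 0.024 in bone-marrow macrophages (SD, n = 3 each) and 0.0803% ± 0.0057 in wild-type microglia (SD, n = 2). The map of log2 levels by library shows this as a block of raised values in bone-marrow macrophages that runs through all 9 functional groups.

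**Figure D1:**
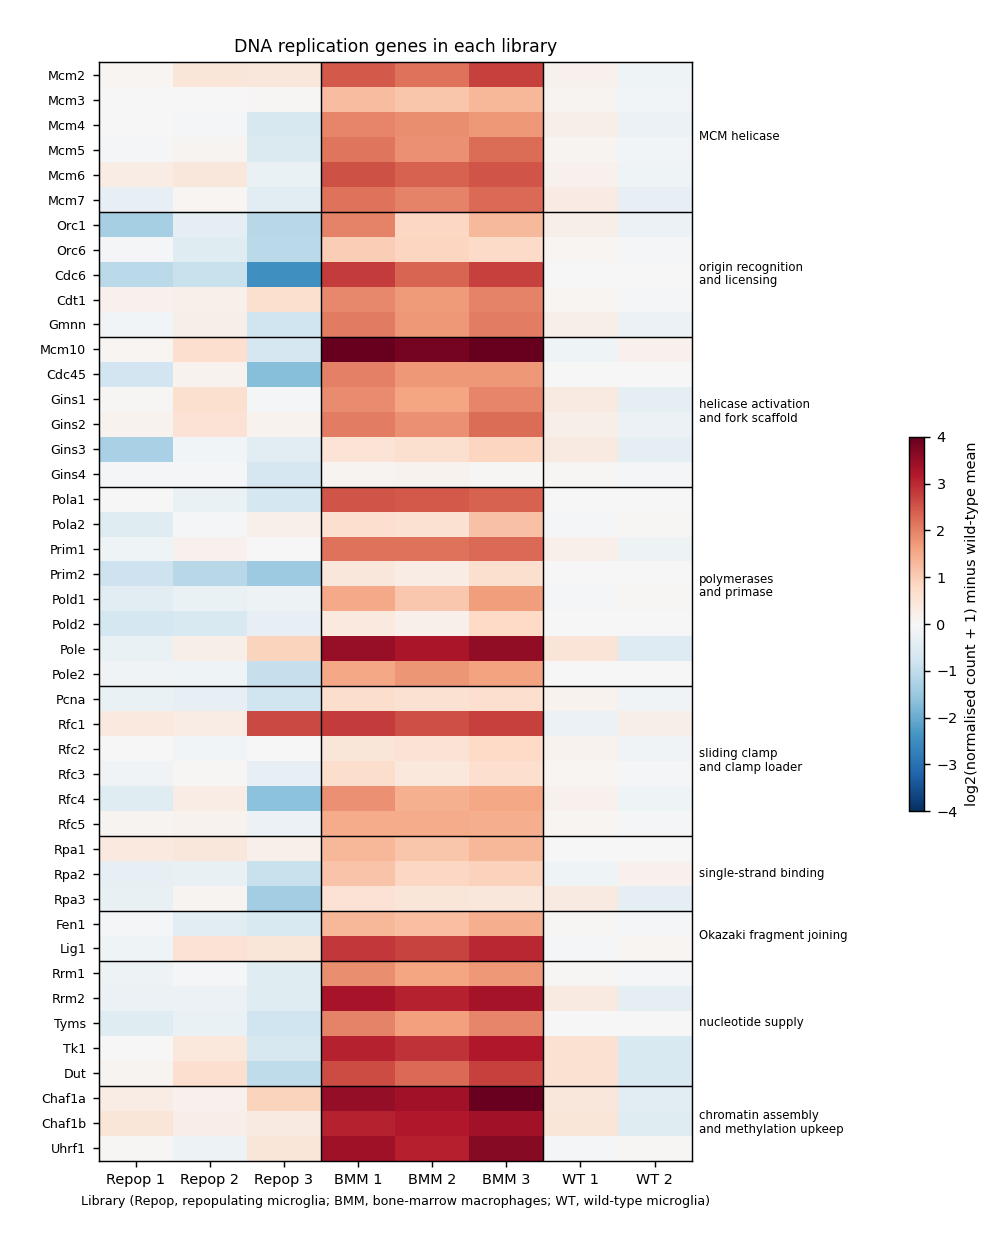
Each row is 1 of the 44 DNA replication genes, grouped by role, and each column is 1 library. Colour gives log2(normalised count + 1) minus the mean of the 2 wild-type libraries. Red fills most of the 3 bone-marrow macrophage columns. It is palest at Gins4 and also pale at other genes with small folds, such as Prim2 and Pold2. Rfc1 in repopulating library 3 is the only strongly red cell among the microglial columns.

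Between bone-marrow macrophages and wild-type microglia, 38 of the 44 genes passed the test as higher and 0 as lower (limma on log2(normalised count + 1), Benjamini-Hochberg adjusted p under 0.05). At an unadjusted p under 0.05 the counts were 39 higher and 0 lower, with edgeR 39 and 0, and with DESeq2 38 and 0. Among all 11415 genes tested 21.3% were called higher and 22.2% lower. The members' median log2 fold was 1.84, against -0.01 over all genes tested. All 44 members had every bone-marrow macrophage library above both wild-type libraries, a pattern that 38% of all genes tested showed, and 37.8% showed the opposite one. The 95% interval of the fold lay wholly above 2-fold for 25 members. The 6 that did not pass were Orc1, Gins3, Gins4, Prim2, Pold2 and Rpa3.

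Repopulating microglia against bone-marrow macrophages gave 0 genes higher and 41 lower (limma; 0 and 43 at an unadjusted p under 0.05, edgeR 0 and 41, DESeq2 0 and 42). Of all genes tested 16% were called higher and 14.9% lower in that comparison. The median log2 fold of the members was -2.06, against 0.00 over all genes tested, and the interval lay wholly past a 2-fold fall for 30 of them. In 43 of 44 members every repopulating library was below every bone-marrow macrophage library, as in 22.4% of all genes tested; 23.7% of all genes had every repopulating library above. The exception was Rfc1. Where a call is said to be lost or gained in another setting, the value in parentheses is the adjusted p there. Each comparison shares libraries with the other comparisons, so their counts are not independent of each other.

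Between repopulating and wild-type microglia, 1 of the 44 genes, Prim2, passed as lower and 0 passed as higher by limma. At an unadjusted p under 0.05 the counts were 1 higher and 5 lower, with edgeR 0 and 1, and with DESeq2 0 and 2. Over all genes tested 4.86% were called higher and 3.75% lower. The median log2 fold of the members was -0.19, against -0.02 over all genes tested, with 28 members below 0 and 16 above. Groups did not overlap for 3 members that were higher (6.82%) and 12 that were lower (27.3%) in repopulating microglia, against 18.5% and 22% of all genes tested. The 95% interval stayed within 2-fold either way for 28 members and within 4-fold for 41, with a median half-width of 0.53 on the log2 scale. Repopulating library 3 had the lowest value of all 8 libraries for 25 of the 44 genes. The matching share over all genes is not given, so this count is not read as a trait of the members. Without repopulating library 3, 1 member passed as higher (Rpa1) and 3 as lower (Prim2, Cdc6 and Pold2). In that fit 1693 of all 11415 genes tested were called higher and 1265 lower, so calls were more frequent over all genes.

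**Figure D2:**
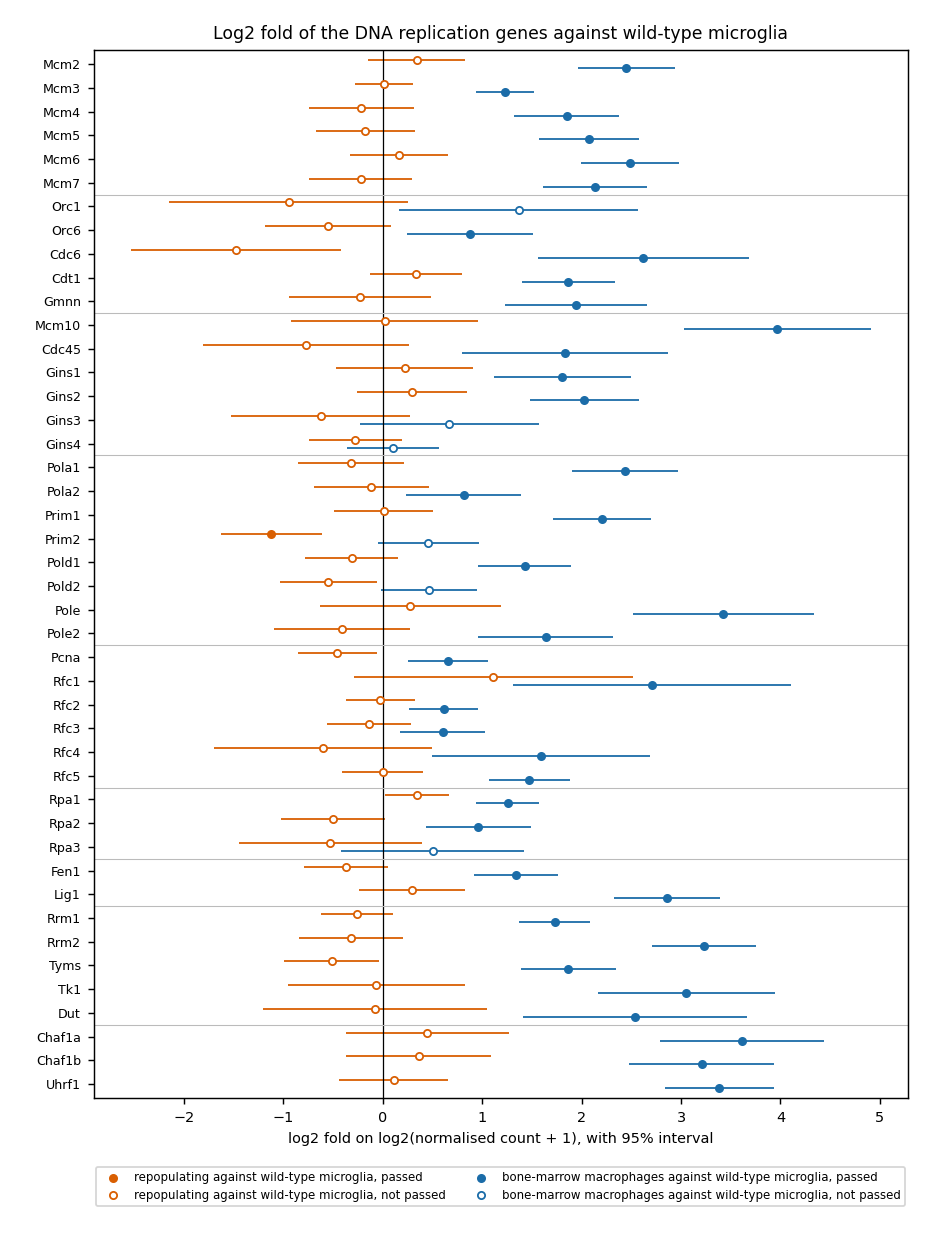
Log2 fold (points) with 95% intervals (bars) of each replication gene, in repopulating microglia against wild-type microglia (orange) and in bone-marrow macrophages against wild-type microglia (blue), from limma over all 8 libraries. Filled points passed an adjusted p of 0.05. The blue points lie from 0.10 to 3.97 and the orange ones from -1.48 to 1.11.

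The promoters of these genes are known for E2F sites, and the letters around the start sites are shown because the members moved together. RefSeq promoter windows (GRCm38.p6, 250 bases before to 50 after the start) matched 36 of the 44 members. Windows were searched on both strands for 4 forms of the E2F site, TTTCCCGC, TTTCGCGC, TTTGGCGC and TTTGCCGC, some of which overlap each other, for CCAAT, and for the CHR words TTTGAA and TTCGAA of late cell cycle promoters. Of the 36, 5 had more than 1 window, as had 20.6% of the tested genes, and a gene was counted where any of its windows held the word. An E2F word lay in 14 of 36 members (38.9%), against 4.86% of the tested genes with a window and 2.60% of all 27025 genes with one. CCAAT lay in 63.9% of the members and in 43.4% of the tested genes, and a CHR word in 19.4% of the members and in 16.4% of the tested genes. The median log2 fold of bone-marrow macrophages against wild-type microglia was 1.97 for the 14 members with an E2F word and 1.78 for the 22 without. The windows shown are those of Rrm2, Uhrf1, Tyms and Mcm2, which had the smallest adjusted p-values among the best-known members, then Pcna, which had the largest among them, and Mcm6 and Mcm5, added after the search because 2 of their E2F words overlap. Capitals mark E2F words of 8 letters and CCAAT or its reverse complement ATTGG, 5 letters; in Mcm6 and Mcm5 the run of 12 capitals is a pair of overlapping E2F words.
Rrm2 promoter, chr12:24708004-24708303, plus strand: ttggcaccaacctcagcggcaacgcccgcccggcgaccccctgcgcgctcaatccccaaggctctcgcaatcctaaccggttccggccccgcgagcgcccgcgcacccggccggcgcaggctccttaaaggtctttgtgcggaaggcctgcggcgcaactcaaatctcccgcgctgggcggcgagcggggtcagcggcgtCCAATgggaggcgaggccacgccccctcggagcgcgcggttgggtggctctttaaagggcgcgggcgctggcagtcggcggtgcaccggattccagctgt
Uhrf1 promoter, chr17:56304063-56304362, plus strand: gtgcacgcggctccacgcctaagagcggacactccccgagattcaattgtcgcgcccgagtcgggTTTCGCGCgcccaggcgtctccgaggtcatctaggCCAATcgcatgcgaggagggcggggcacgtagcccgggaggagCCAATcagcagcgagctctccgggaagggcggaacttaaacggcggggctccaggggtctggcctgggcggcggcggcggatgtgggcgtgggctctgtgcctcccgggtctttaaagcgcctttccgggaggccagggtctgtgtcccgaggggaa
Tyms promoter, chr5:30073576-30073875, minus strand: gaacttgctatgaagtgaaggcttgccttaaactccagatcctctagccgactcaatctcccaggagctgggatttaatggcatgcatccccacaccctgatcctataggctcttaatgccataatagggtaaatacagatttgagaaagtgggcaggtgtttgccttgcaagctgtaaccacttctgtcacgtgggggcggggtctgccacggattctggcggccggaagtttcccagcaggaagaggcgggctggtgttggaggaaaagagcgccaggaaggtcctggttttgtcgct
Mcm2 promoter, chr6:88898731-88899030, minus strand: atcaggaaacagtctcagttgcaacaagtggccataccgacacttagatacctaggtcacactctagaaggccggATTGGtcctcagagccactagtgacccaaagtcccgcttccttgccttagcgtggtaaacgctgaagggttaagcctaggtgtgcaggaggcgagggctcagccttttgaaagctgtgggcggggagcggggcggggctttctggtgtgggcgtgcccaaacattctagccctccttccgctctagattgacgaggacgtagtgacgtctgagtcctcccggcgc
Pcna promoter, chr2:132253131-132253430, minus strand: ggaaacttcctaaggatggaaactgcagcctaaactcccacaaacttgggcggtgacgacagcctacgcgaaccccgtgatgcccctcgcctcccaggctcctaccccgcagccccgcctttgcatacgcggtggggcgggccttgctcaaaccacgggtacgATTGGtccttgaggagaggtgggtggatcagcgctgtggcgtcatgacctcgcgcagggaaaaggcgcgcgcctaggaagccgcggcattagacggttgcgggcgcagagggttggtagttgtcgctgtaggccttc
Mcm6 promoter, chr1:128359656-128359955, minus strand: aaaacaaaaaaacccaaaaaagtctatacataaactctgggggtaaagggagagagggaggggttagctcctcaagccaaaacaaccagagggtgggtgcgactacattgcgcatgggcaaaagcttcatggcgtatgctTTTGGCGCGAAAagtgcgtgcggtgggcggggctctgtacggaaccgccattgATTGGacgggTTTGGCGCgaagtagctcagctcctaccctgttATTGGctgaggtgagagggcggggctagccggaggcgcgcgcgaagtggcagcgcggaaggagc
Mcm5 promoter, chr8:75109259-75109558, plus strand: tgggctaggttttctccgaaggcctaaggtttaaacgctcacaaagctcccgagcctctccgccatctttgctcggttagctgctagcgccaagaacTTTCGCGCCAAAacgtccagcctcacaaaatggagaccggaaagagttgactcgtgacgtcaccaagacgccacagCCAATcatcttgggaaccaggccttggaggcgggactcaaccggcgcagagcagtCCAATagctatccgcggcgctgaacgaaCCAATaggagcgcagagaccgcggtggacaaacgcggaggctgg
Of the windows shown, those of Uhrf1, Mcm6 and Mcm5 held an E2F word, and Tyms held neither of the marked words. Uhrf1 has a second window, at another start site (chr17:56303087-56303386), which held 0 E2F words and is not shown. A match is a description of the letters, and a missing match says only that these letters are not in this window.

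**Figure D3:**
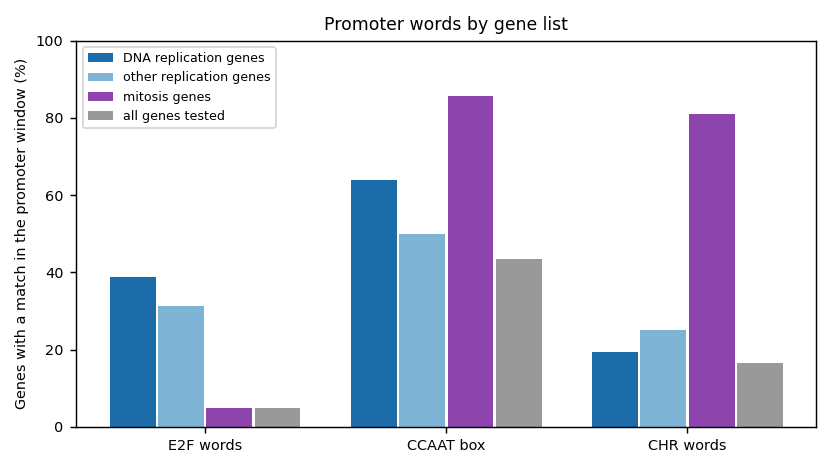
Bars give the percentage of genes with at least 1 match in the promoter window, for E2F words, CCAAT and CHR words. E2F words were found in 38.9% of the DNA replication genes, 31.2% of the other replication genes, 4.76% of the mitosis genes and 4.86% of all tested genes, and CHR words in 81.0% of the mitosis genes.

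The MCM2-7 helicase, a ring of 6 related ATPases, was higher as a whole in bone-marrow macrophages: 6 of 6 subunit genes passed against wild type and 6 of 6 were lower in repopulating microglia against bone-marrow macrophages. Mcm6 had 326, 366 and 222 normalised counts in repopulating microglia, 1576, 1385 and 1534 in bone-marrow macrophages, and 301 and 236 in wild-type microglia. Its lowest bone-marrow macrophage library was above every microglial library several times over. The log2 fold was 2.48 ± 0.22 (SE; adjusted p = 6.67e-05) for bone-marrow macrophages against wild type and -2.32 ± 0.19 (adjusted p = 6.52e-05) for the repopulating cells set against bone-marrow macrophages. Mcm2, whose N terminus also carries histones H3 and H4, had 154, 205 and 199 normalised counts in repopulating microglia, 798, 664 and 969 in bone-marrow macrophages, and 166 and 128 in wild-type microglia. Here repopulating and wild-type libraries interleave, and their log2 difference was 0.34 ± 0.21 (adjusted p = 0.34), whereas bone-marrow macrophages differed from wild type by 2.45 ± 0.21 (adjusted p = 6.48e-05).

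Mcm5 had 245, 272 and 169 normalised counts in repopulating microglia, 1129, 910.0 and 1194 in bone-marrow macrophages, and 275 and 233 in wild-type microglia. Mcm7 had 159, 209.6 and 147 normalised counts in repopulating microglia, 892, 792 and 955 in bone-marrow macrophages, and 250.03 and 158 in wild-type microglia. Mcm4 had 206, 196 and 130.2 normalised counts in repopulating microglia, 786, 737 and 678 in bone-marrow macrophages, and 240.4 and 169.8 in wild-type microglia. In each of these 3 subunits the 5 microglial libraries overlapped between groups and all lay below the bone-marrow macrophage libraries. Log2 folds of bone-marrow macrophages against wild type were 2.08 ± 0.22 for Mcm5, 2.14 ± 0.23 for Mcm7 and 1.85 ± 0.23 for Mcm4, with adjusted p-values of 0.000174, 0.000185 and 0.00041. Repopulating microglia were lower than bone-marrow macrophages for all 3, at -2.25 ± 0.20, -2.36 ± 0.21 and -2.07 ± 0.21 in the same order of genes. Mcm7 shares 10.8% of its exon bases with a gene on the other strand, and the kit does not mark strand.

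Mcm3 differed from the other subunits in level. It had 585, 587 and 606 normalised counts in repopulating microglia, 1396, 1255 and 1481 in bone-marrow macrophages, and 626 and 549 in wild-type microglia. The microglial libraries overlapped. Among the repopulating libraries the smallest coefficient of variation of any member was that of Mcm3, 1.95%, where the median member had 23.2%. The median was 10.9% in bone-marrow macrophages and 12.6% in wild-type microglia. Mcm3 is here the lowest of 44 genes with 3 libraries each, and the counting noise of single genes was not assessed. Its log2 fold was 1.23 ± 0.13 for bone-marrow macrophages against wild type (adjusted p = 0.000165) and -1.21 ± 0.12 for the repopulating cells set against bone-marrow macrophages (adjusted p = 0.000124), each the smallest in size among the 6 subunits. Per kilobase of exon, the scale on which genes can be compared, Mcm3 averaged 196 normalised counts per kilobase in repopulating microglia, 454 in bone-marrow macrophages and 194 in wild-type microglia. The other 5 subunits lay between 49.4 and 69.7 in repopulating microglia, between 204 and 343 in bone-marrow macrophages and between 43.6 and 73.4 in wild-type microglia. Mcm3 thus stood at 3.20, 2.78 and 4.08 times the mean of the other subunits in the repopulating libraries, 1.59, 1.66 and 1.63 times in the bone-marrow macrophage libraries, and 2.96 and 3.49 times in the wild-type libraries. The microglial and bone-marrow ratios did not overlap; the exon lengths are those of all annotated transcripts together, and which transcripts were made was not measured.

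Origin recognition and licensing genes rose less evenly, with 4 of 5 higher in bone-marrow macrophages than in wild type and 5 of 5 lower in repopulating microglia than in bone-marrow macrophages. Cdc6, the ATPase that joins the origin recognition complex and helps load the helicase, had 7.56, 8.86 and 2.30 normalised counts in repopulating microglia, 125, 91.2 and 119.9 in bone-marrow macrophages, and 17.1 and 17.3 in wild-type microglia. The order of the groups was complete: every repopulating library was below both wild-type libraries, and those were below all bone-marrow macrophage libraries. Cdc6 gave the largest fall of any member between repopulating microglia and bone-marrow macrophages, -4.10 ± 0.42 on the log2 scale (adjusted p = 0.000168). Against wild type it was -1.48 ± 0.47 in repopulating microglia (adjusted p = 0.086) and 2.62 ± 0.47 in bone-marrow macrophages (adjusted p = 0.0024). The difference between the microglial groups did not pass here, but it passed without repopulating library 3 (-0.99, adjusted p = 0.0262) and with DESeq2 (-1.49, adjusted p = 0.0471).

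Cdt1, which brings the helicase to the origin, had 80.3, 82.6 and 113 normalised counts in repopulating microglia, 273, 234 and 290.1 in bone-marrow macrophages, and 75.9 and 68.1 in wild-type microglia. Unlike Cdc6, it was a little higher in every repopulating library than in either wild-type library, with a log2 difference of 0.33 ± 0.20 that did not pass (adjusted p = 0.332). Gmnn encodes geminin, the inhibitor of Cdt1, and had 51.0, 64.9 and 31.1 normalised counts in repopulating microglia, 235, 185 and 231 in bone-marrow macrophages, and 65.2 and 46.8 in wild-type microglia. Log2 folds of bone-marrow macrophages against wild type were 1.87 ± 0.20 for Cdt1 (adjusted p = 0.000207) and 1.95 ± 0.31 for Gmnn (adjusted p = 0.00148), and those of repopulating microglia against bone-marrow macrophages -1.53 ± 0.18 and -2.18 ± 0.28 (adjusted p = 0.000407 and 0.000603). Inhibitor and target were thus both higher in bone-marrow macrophages than in either microglial group.

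Orc1, the largest subunit of the origin recognition complex, was the least abundant member per kilobase of exon in repopulating microglia (0.953) and in bone-marrow macrophages (6.16); in wild-type microglia only Mcm10 was lower than its 2.08. Its normalised counts were 1.89, 4.43 and 2.30 in repopulating microglia, 27.3, 11.7 and 16.8 in bone-marrow macrophages, and 7.48 and 5.08 in wild-type microglia. The 3 groups were in the same order as for Cdc6, with no overlap, but the microglial values rest on a few reads. Of all genes tested, 22% were likewise lower without overlap in repopulating than in wild-type microglia. Orc1 could be tested only through the bone-marrow macrophages, where it is high. Orc1 was -2.31 ± 0.47 in repopulating microglia against bone-marrow macrophages (adjusted p = 0.00621), 1.37 ± 0.53 in bone-marrow macrophages against wild type (adjusted p = 0.0643) and -0.95 ± 0.53 in repopulating against wild-type microglia (adjusted p = 0.287). The second of these missed the threshold, yet passed without repopulating library 3 (adjusted p = 0.0340), with edgeR (adjusted p = 0.0342) and in 3 other settings. Orc6, another subunit, had 164 to 193 normalised counts in bone-marrow macrophages and 90.5 and 103 in wild-type microglia, a log2 fold of 0.88 ± 0.28 (adjusted p = 0.0325); leaving out any 1 library of those groups ended the call (adjusted p from 0.0670 to 0.160).

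Genes that turn the loaded ring into a helicase ranged from the largest rise of all 44 members to the smallest. Mcm10, an initiation factor that is not a subunit of the ring, had 6.61, 10.3 and 3.46 normalised counts in repopulating microglia, 113, 101 and 121 in bone-marrow macrophages, and 5.34 and 7.12 in wild-type microglia. All microglial libraries stood near the bottom of what was measured, and the groups of microglia overlapped. Mcm10 could be tested only through the bone-marrow macrophages, where it is high. The log2 fold of bone-marrow macrophages against wild type was 3.97 ± 0.41, or 15.6-fold (95% interval 3.03 to 4.91 on the log2 scale, adjusted p = 0.000159). Repopulating microglia were lower than bone-marrow macrophages, at -3.95 ± 0.37 (adjusted p = 0.000118).

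Gins4 stood at the other end. This GINS subunit (chr8:23226616-23237659, minus strand, GRCm38) had 198, 195 and 129 normalised counts in repopulating microglia, 222, 230.1 and 215 in bone-marrow macrophages, and 212 and 202 in wild-type microglia. Bone-marrow macrophages lay just above wild type, and repopulating libraries 1 and 2 just below. Log2 folds were 0.10 ± 0.20 against wild type (95% interval -0.36 to 0.57, adjusted p = 0.702) and -0.38 ± 0.18 for the repopulating cells set against bone-marrow macrophages (interval -0.79 to 0.04, adjusted p = 0.153), so both intervals stayed within 2-fold; with equal totals the second passed (-0.63, adjusted p = 0.0151). Of its 3 partners in the GINS complex, Gins1 had a log2 fold of 1.80 ± 0.30 and Gins2 of 2.03 ± 0.24 in bone-marrow macrophages against wild type (adjusted p = 0.00184 and 0.000325), and Gins3 of 0.67 ± 0.40, which did not pass (adjusted p = 0.199; 0.0491 with only the groups compared). Per kilobase of exon Gins4 averaged 129 normalised counts per kilobase in repopulating microglia, 165 in bone-marrow macrophages and 153 in wild-type microglia, and Gins1 averaged 42.0 normalised counts per kilobase in repopulating microglia, 125 in bone-marrow macrophages and 36.2 in wild-type microglia. On that scale Gins4 was above its partner in every group, and in both microglial groups only Pcna and Mcm3 were above it among the 44 members. Gins2 shares 70.7% of its exon bases with Gse1 on the other strand, so its values are uncertain. Gins3 was lower in repopulating microglia than in bone-marrow macrophages (-1.29 ± 0.35, adjusted p = 0.0237), a call lost without repopulating library 1 (0.0632) or without bone-marrow library 1 (0.0639), 2 (0.0679) or 3 (0.0887).

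Cdc45, which joins MCM2-7 and GINS in the active helicase, had 20.8, 39.8 and 10.4 normalised counts in repopulating microglia, 149, 121 and 123 in bone-marrow macrophages, and 35.3 and 36.6 in wild-type microglia. The wild-type values lay within the repopulating range. Its log2 fold was 1.83 ± 0.46 in bone-marrow macrophages against wild type (adjusted p = 0.0118), a call lost without wild-type library 1 (0.0704) or 2 (0.0620), and -2.60 ± 0.41 in repopulating microglia against bone-marrow macrophages (adjusted p = 0.00165). Between the microglial groups it was -0.77 ± 0.46 (adjusted p = 0.314).

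Of the 8 polymerase and primase genes, 6 were higher in bone-marrow macrophages than in wild type, and 8 were lower in repopulating microglia than in bone-marrow macrophages. Polymerase alpha and primase form 1 complex that starts each new strand with a short RNA and DNA primer. Its catalytic polymerase, Pola1, had 48.2, 39.8 and 28.8 normalised counts in repopulating microglia, 279.6, 264 and 248 in bone-marrow macrophages, and 48.1 and 47.8 in wild-type microglia. Log2 folds were 2.43 ± 0.23 for bone-marrow macrophages against wild type (adjusted p = 0.000103) and -2.76 ± 0.21 for the repopulating cells set against bone-marrow macrophages (adjusted p = 4.33e-05). The catalytic primase, Prim1, followed it with 31.2, 39.8 and 35.7 normalised counts in repopulating microglia, 163, 162 and 173 in bone-marrow macrophages, and 40.6 and 30.5 in wild-type microglia. Both catalytic subunits were therefore several times higher in every bone-marrow macrophage library, with Prim1 at 2.20 ± 0.22 against wild type (adjusted p = 0.000114) and repopulating microglia at -2.20 ± 0.19 against bone-marrow macrophages (adjusted p = 8.78e-05).

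The regulatory subunits of the same complex had smaller folds in both comparisons with bone-marrow macrophages. Prim2, which bridges primase and polymerase (chr1:33453810-33669795, minus strand, GRCm38), had 66.1, 54.6 and 42.6 normalised counts in repopulating microglia, 162, 144 and 183 in bone-marrow macrophages, and 116 and 119 in wild-type microglia. The groups did not overlap in any pair, with repopulating microglia lowest and bone-marrow macrophages highest. It was the 1 member that passed between the microglial groups, at -1.12 ± 0.22 on the log2 scale (95% interval -1.63 to -0.61, adjusted p = 0.0206). That call was lost when bone-marrow macrophages were kept out of the fit (0.123), when replicate number was a block (0.0505), without bone-marrow library 1 (0.0502), and without wild-type library 1 (0.151) or 2 (0.123); the lowest adjusted p in any setting was 0.00119, the highest 0.151, and the direction stayed the same. In bone-marrow macrophages Prim2 was 0.46 ± 0.22 against wild type (adjusted p = 0.125), which passed without repopulating library 3 (0.0364), with equal totals (0.0427) or with only the groups compared (0.0246), and repopulating microglia were lower than bone-marrow macrophages, at -1.58 ± 0.20 (adjusted p = 0.000533). Pola2, the regulatory subunit of polymerase alpha, had a log2 fold of 0.81 ± 0.25 in bone-marrow macrophages against wild type (adjusted p = 0.03), lost without bone-marrow library 1 (0.0547) or 3 (0.0982) or wild-type library 1 (0.144) or 2 (0.101). Its fall in repopulating microglia against bone-marrow macrophages (-0.93 ± 0.23, adjusted p = 0.0147) was lost without bone-marrow library 3 (0.0626).

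In the replicative polymerases, too, folds in the comparisons with bone-marrow macrophages were larger for the catalytic than for the accessory subunits measured. Pole, the catalytic subunit of the leading-strand polymerase epsilon, had 13.2, 19.2 and 31.1 normalised counts in repopulating microglia, 192, 164 and 200.2 in bone-marrow macrophages, and 23.5 and 11.2 in wild-type microglia. Its accessory subunit Pole2 had 22.7, 22.1 and 12.7 normalised counts in repopulating microglia, 75.6, 87.0 and 77.6 in bone-marrow macrophages, and 24.6 and 25.4 in wild-type microglia. Microglial libraries of both kinds overlapped for Pole. The log2 fold of bone-marrow macrophages against wild type was 3.43 ± 0.40 for Pole (adjusted p = 0.000286) and 1.64 ± 0.30 for Pole2 (adjusted p = 0.00281). Pold1, the catalytic subunit of the lagging-strand polymerase delta, had 73.7, 84.1 and 88.7 normalised counts in repopulating microglia, 294, 218 and 327 in bone-marrow macrophages, and 99.4 and 105 in wild-type microglia. Pold2, an accessory subunit, had 101, 109 and 134 normalised counts in repopulating microglia, 217, 193 and 293 in bone-marrow macrophages, and 167 and 167 in wild-type microglia. Bone-marrow macrophages were above wild type in every library for both, by 1.43 ± 0.21 for Pold1 (adjusted p = 0.000857) and by 0.47 ± 0.21 for Pold2, which did not pass (adjusted p = 0.108) but did without repopulating library 3 (0.0375) or with only the groups compared (0.0372). Repopulating microglia against bone-marrow macrophages gave -3.15 ± 0.36 for Pole, -2.05 ± 0.27 for Pole2, -1.74 ± 0.18 for Pold1 and -1.01 ± 0.19 for Pold2, all past the threshold. Whether the log2 folds of catalytic and accessory subunits differ from each other was not tested.

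**Figure D4:**
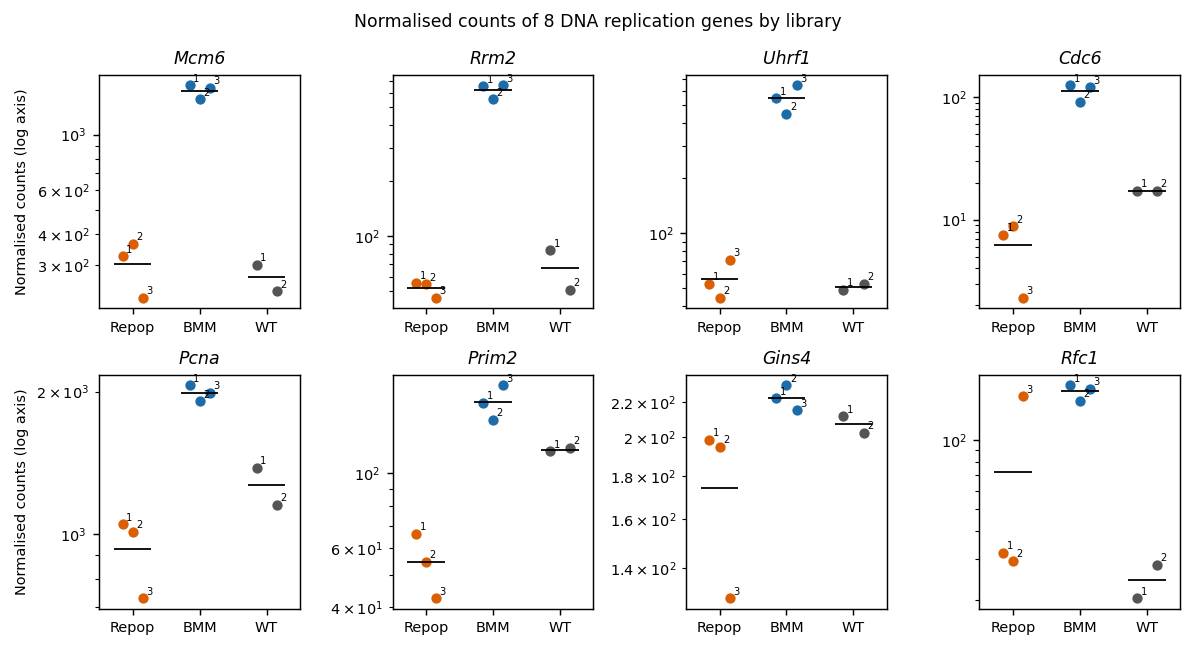
Normalised counts on log axes for 8 of the genes in each library (numbers give the replicate, horizontal lines the group means), for repopulating microglia (Repop), bone-marrow macrophages (BMM) and wild-type microglia (WT). Mcm6, Rrm2, Uhrf1 and Cdc6 stand far higher in bone-marrow macrophages, Pcna and Prim2 less so, Gins4 hardly at all, and Rfc1 in repopulating library 3 (155) lies among the bone-marrow macrophages.

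Pcna, the ring that holds polymerases on DNA, was the most abundant member per kilobase of exon in all 3 groups, with 612 normalised counts per kilobase in repopulating microglia, 1309 in bone-marrow macrophages and 834 in wild-type microglia. Without that scaling it had 1047, 1008 and 730.2 normalised counts in repopulating microglia, 2062, 1908 and 1992 in bone-marrow macrophages, and 1378 and 1153 in wild-type microglia. Groups did not overlap: repopulating microglia were lowest and bone-marrow macrophages highest. The log2 folds were small beside those of the helicase, 0.66 ± 0.18 in bone-marrow macrophages against wild type (adjusted p = 0.016) and -1.11 ± 0.16 in repopulating microglia against bone-marrow macrophages (adjusted p = 0.000954). The first was lost without bone-marrow library 1 (0.0554) or wild-type library 2 (0.127). Repopulating against wild-type microglia gave -0.46 ± 0.18 (adjusted p = 0.14), which passed when libraries were scaled to equal totals (-0.57, adjusted p = 0.0428). The annotation holds 2 pseudogene copies of Pcna, whose reads could not be separated here.

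The clamp loader RFC opens the ring, and all 5 of its subunit genes were higher in bone-marrow macrophages than in wild type. Rfc1, the large subunit (chr5:65261850-65335670, minus strand, GRCm38), had 32.1, 29.5 and 155 normalised counts in repopulating microglia, 173, 148 and 168 in bone-marrow macrophages, and 20.3 and 28.5 in wild-type microglia. Repopulating library 3 lay with the bone-marrow macrophages and libraries 1 and 2 with the wild type, the highest coefficient of variation of any member in that group (99.5%). The log2 fold of bone-marrow macrophages against wild type was 2.71 ± 0.62 (adjusted p = 0.00797), lost without wild-type library 1 (0.0658). Repopulating microglia were -1.60 ± 0.55 against bone-marrow macrophages (adjusted p = 0.0569) and 1.11 ± 0.62 against wild type (adjusted p = 0.285); the first of these passed without library 3 (-2.37, adjusted p = 3.27e-06), with equal totals (0.0378), with TMM scaling (0.0479) and with the replicate block (0.0325). Mki67, a proliferation gene from outside the 44 named after its values were seen, had 2.83, 1.48 and 79.5 normalised counts in repopulating microglia, 139.8, 105 and 176 in bone-marrow macrophages, and 2.14 and 3.05 in wild-type microglia. It was high in repopulating library 3 alone among the microglia, but the 24 mitosis genes it belongs to were not: library 3 had the lowest repopulating value for 15 of them and the highest for 4, and their summed normalised counts were 961, 1212 and 833 in the repopulating libraries.

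Rfc5 had 85.9, 87.1 and 68.0 normalised counts in repopulating microglia, 224, 223 and 222 in bone-marrow macrophages, and 84.4 and 75.2 in wild-type microglia, and a log2 fold of 1.47 ± 0.18 in bone-marrow macrophages against wild type (adjusted p = 0.000353). Its 3 bone-marrow macrophage libraries had the smallest coefficient of variation of any member in that group, 0.388%. Rfc2, Rfc3 and Rfc4 had log2 folds of 0.61 ± 0.15, 0.60 ± 0.19 and 1.59 ± 0.48, with adjusted p-values of 0.0114, 0.0295 and 0.0268. These calls rested on few libraries: that of Rfc2 was lost without wild-type library 2 (0.102), that of Rfc4 without any 1 of the 5 libraries of those groups (0.0562 to 0.144), and that of Rfc3 without bone-marrow library 1 or 3, without either wild-type library (0.0837 to 0.158) or with the replicate block (0.0502). Against bone-marrow macrophages, repopulating microglia were lower for Rfc2 (-0.64 ± 0.14), Rfc3 (-0.74 ± 0.17), Rfc4 (-2.20 ± 0.43) and Rfc5 (-1.47 ± 0.16); the call for Rfc3 was lost without bone-marrow library 1 (0.0569).

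Replication protein A coats single-stranded DNA and serves repair as well as replication. Rpa1, its largest subunit, had 479.8, 508 and 423 normalised counts in repopulating microglia, 924, 792 and 935 in bone-marrow macrophages, and 363 and 374 in wild-type microglia. Its repopulating libraries were all a little above wild type, without a call, and bone-marrow macrophages were higher still, at 1.25 ± 0.14 against wild type (adjusted p = 0.000227). Rpa2 was 0.96 ± 0.23 against wild type (adjusted p = 0.0103), lost without wild-type library 1 (0.0932). Rpa3 did not pass, at 0.50 ± 0.40 (interval -0.42 to 1.42, adjusted p = 0.336). In repopulating microglia against bone-marrow macrophages the 3 subunits were -0.91 ± 0.13, -1.46 ± 0.21 and -1.03 ± 0.36; the last missed the threshold (adjusted p = 0.06), but passed without repopulating library 2 (0.0193) or 3 (0.0376) and in 4 other settings.

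Lagging-strand fragments are trimmed by the flap nuclease Fen1 and sealed by DNA ligase 1. Lig1 had 70.8, 118 and 112 normalised counts in repopulating microglia, 572, 525 and 655 in bone-marrow macrophages, and 75.9 and 83.4 in wild-type microglia. Fen1 had 203, 159 and 138 normalised counts in repopulating microglia, 543, 493 and 592 in bone-marrow macrophages, and 222 and 205 in wild-type microglia. All bone-marrow macrophage libraries were above all microglial ones. Log2 folds against wild type were 2.86 ± 0.23 for Lig1 (adjusted p = 4.88e-05) and 1.34 ± 0.19 for Fen1 (adjusted p = 0.000693). Repopulating microglia were lower than bone-marrow macrophages, at -2.56 ± 0.21 and -1.71 ± 0.17 (adjusted p = 5.82e-05 and 0.000138). Exons of Fen1 overlap other genes on the opposite strand over as much as 78.8% of their bases, so its values are uncertain.

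Genes of nucleotide supply were among the strongest risers, with 5 of 5 higher in bone-marrow macrophages than in wild type and a median log2 fold of 2.54. Rrm2, the regulated small subunit of ribonucleotide reductase, had 55.7, 54.6 and 46.1 normalised counts in repopulating microglia, 649.5, 553 and 660.5 in bone-marrow macrophages, and 83.3 and 50.8 in wild-type microglia. The microglial groups overlapped, and all their libraries lay far below the bone-marrow macrophages. It was 9.37-fold higher in bone-marrow macrophages than in wild type (log2 3.23 ± 0.23, interval 2.71 to 3.75, adjusted p = 2.53e-05), and repopulating microglia were lower than bone-marrow macrophages, at -3.55 ± 0.21 (adjusted p = 1.6e-05, the smallest of any member in any comparison). The large subunit, Rrm1, had 334, 366 and 278 normalised counts in repopulating microglia, 1421, 1168 and 1280.4 in bone-marrow macrophages, and 404 and 371 in wild-type microglia. Its log2 fold against wild type, 1.73 ± 0.16 (adjusted p = 8.25e-05), was smaller than that of its partner, and levels per kilobase set the subunits apart in microglia: Rrm1 averaged 81.6 normalised counts per kilobase in repopulating microglia, 323 in bone-marrow macrophages and 96.9 in wild-type microglia, and Rrm2 averaged 23.8 normalised counts per kilobase in repopulating microglia, 283 in bone-marrow macrophages and 30.6 in wild-type microglia.

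Tyms, thymidylate synthase, had 62.3, 72.3 and 49.5 normalised counts in repopulating microglia, 349, 273 and 343 in bone-marrow macrophages, and 85.5 and 88.5 in wild-type microglia. Thymidine kinase Tk1 had 74.6, 100.4 and 47.2 normalised counts in repopulating microglia, 634, 549 and 689.6 in bone-marrow macrophages, and 114 and 47.8 in wild-type microglia. The dUTPase gene Dut had 51.0, 75.3 and 23.0 normalised counts in repopulating microglia, 294, 231 and 319 in bone-marrow macrophages, and 72.7 and 30.5 in wild-type microglia. In Tk1 and Dut the 2 wild-type libraries differed by more than 2-fold, and the repopulating values spread around them; the coefficient of variation of Tk1, 58.0%, was the highest of any member in wild-type microglia. For Tyms every repopulating library was below both wild-type ones, though no call was made. Log2 folds of bone-marrow macrophages against wild type were 1.87 ± 0.21 for Tyms, 3.05 ± 0.39 for Tk1 and 2.54 ± 0.50 for Dut (adjusted p = 0.000233, 0.000455 and 0.00387), and those of repopulating microglia against bone-marrow macrophages -2.38 ± 0.19, -3.12 ± 0.35 and -2.62 ± 0.44 (adjusted p = 4.92e-05, 0.000296 and 0.00248). The annotation holds 1 pseudogene copy of Tyms.

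Chromatin genes that act behind the fork had the highest median of the 9 roles, a log2 fold of 3.38 in bone-marrow macrophages against wild type, with 3 of 3 past the threshold there and 3 of 3 lower in repopulating microglia than in bone-marrow macrophages. Uhrf1, which reads hemimethylated DNA and recruits the maintenance methyltransferase, had 52.9, 44.3 and 71.4 normalised counts in repopulating microglia, 547, 451 and 645 in bone-marrow macrophages, and 49.2 and 52.9 in wild-type microglia. The 5 microglial libraries overlapped, and all lay far below the bone-marrow macrophages, with no library in between. Bone-marrow macrophages were 10.4-fold higher than wild type (log2 3.38 ± 0.24, interval 2.84 to 3.93, adjusted p = 2.53e-05), and repopulating microglia were lower than bone-marrow macrophages, at -3.27 ± 0.22 (adjusted p = 2.7e-05). Chaf1a and Chaf1b encode subunits of chromatin assembly factor 1, which places histones on new DNA. Chaf1a had 17.9, 16.2 and 27.6 normalised counts in repopulating microglia, 175, 157 and 239 in bone-marrow macrophages, and 20.3 and 10.2 in wild-type microglia. Chaf1b had 18.9, 16.2 and 17.3 normalised counts in repopulating microglia, 119, 130.4 and 147 in bone-marrow macrophages, and 19.2 and 9.15 in wild-type microglia. Both rose in bone-marrow macrophages against wild type, by 3.61 ± 0.36 and 3.21 ± 0.32 (adjusted p = 0.000125 and 0.000122), and were lower in repopulating microglia than in bone-marrow macrophages, at -3.16 ± 0.32 and -2.85 ± 0.29; Chaf1a shares 33.6% of its exon bases with Ubxn6 on the other strand.

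Other genes of the cell cycle were read from lists chosen by function. Of 40 further replication genes, 27 were higher and 5 lower in bone-marrow macrophages than in wild type, with a median log2 fold of 1.36; these are 67.5% and 12.5% of the list, against 21.3% and 22.2% of all genes tested. Clspn, the checkpoint adaptor claspin, had 5.67, 7.38 and 8.06 normalised counts in repopulating microglia, 131, 103 and 146 in bone-marrow macrophages, and 4.27 and 4.07 in wild-type microglia. It was under the minimum of 10 normalised counts in every microglial library, and it could be tested only through the bone-marrow macrophages, where it is high, as could 3 others of the 40. Those lower in bone-marrow macrophages were Tk2, the mitochondrial thymidine kinase, Orc5, Orc4, Rrm2b, the reductase subunit used outside S phase, and Donson. Among these the calls for Orc4 (0.0601 to 0.0777), Rrm2b (0.0638 to 0.0684) and Donson (0.0927 to 0.134) were lost without either wild-type library, and that for Donson also without bone-marrow library 2 (0.0831) or 3 (0.0662). Tk2 had 462, 469 and 571 normalised counts in repopulating microglia, 286, 308 and 269 in bone-marrow macrophages, and 861 and 699.5 in wild-type microglia (log2 -1.43 ± 0.16 in bone-marrow macrophages against wild type, adjusted p = 0.000213), so the mitochondrial kinase and the S-phase kinase Tk1 were in opposite order between those groups. In repopulating against wild-type microglia 2 of the 40 were higher (5.0%, against 4.86% of all genes tested), Dna2 (1.30 ± 0.15, adjusted p = 0.00259) and Pold4 (1.27 ± 0.21, adjusted p = 0.0107), and 3 were lower (7.5%, against 3.75%), Donson (-1.12 ± 0.20), Tk2 (-0.64 ± 0.16) and Orc5 (-0.69 ± 0.18), with adjusted p-values of 0.0137, 0.0426 and 0.049. Repopulating microglia against bone-marrow macrophages gave 1 higher (Tk2, 2.5% of the list) and 28 lower (70%). Over all genes tested 16% were called higher and 14.9% lower there. The median log2 fold of the list was -1.21, beside 0.04 against wild-type microglia.

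Dna2, a nuclease and helicase of Okazaki fragments, had 152, 134 and 131 normalised counts in repopulating microglia, 384, 383 and 396 in bone-marrow macrophages, and 57.7 and 53.9 in wild-type microglia. Pold4, the smallest subunit of polymerase delta, had 932, 1001 and 643 normalised counts in repopulating microglia, 579, 557 and 601 in bone-marrow macrophages, and 401 and 303 in wild-type microglia. Dna2 placed the repopulating libraries between wild type and bone-marrow macrophages, while Pold4 was highest in the repopulating libraries. The call for Dna2 was lost only when bone-marrow macrophages were kept out of the fit (0.0645). Those for Pold4 and Donson were lost without wild-type library 1 (0.0654 and 0.140) or 2 (0.0984 and 0.0882). Tk2 and Orc5 were lost without any 1 library of any group, except without repopulating library 3 for Tk2 and without repopulating library 2 or 3 for Orc5 (0.0765 to 0.310 and 0.0882 to 0.326). Both were also lost with the replicate block (0.0713 and 0.0995) and, like the calls for Pold4 (0.0864) and Donson (0.0919), with only the groups compared (0.165 and 0.190), and that for Orc5 with a pseudocount of 0.5 (0.0502), with no filter (0.0609) and with TMM scaling (0.0562).

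Genes of mitosis had larger median folds than those of replication; the difference was not tested, and 4 of the 24 reached the minimum for testing only through the bone-marrow macrophages. All 24 were higher in bone-marrow macrophages than in wild type, with a median log2 fold of 3.50, and all 24 were lower in repopulating microglia than in bone-marrow macrophages, with a median of -3.24. Over all genes tested 21.3% were called higher in the former comparison and 14.9% lower in the latter. Top2a, topoisomerase II alpha, had 78.4, 84.1 and 77.2 normalised counts in repopulating microglia, 1368, 1160.3 and 1356 in bone-marrow macrophages, and 93.0 and 74.2 in wild-type microglia, a log2 fold of 3.94 ± 0.16 in bone-marrow macrophages against wild type (adjusted p = 2.91e-06). Between repopulating and wild-type microglia 0 of the 24 passed in either direction by limma, edgeR or DESeq2; at an unadjusted p under 0.05 limma gave 1 higher and 0 lower, edgeR 2 and 0, and DESeq2 4 and 0. The summed mitosis counts were 16.3%, 19.3% and 16.2% of the summed replication counts in the repopulating libraries, 49.2%, 44.2% and 47.4% in the bone-marrow macrophage libraries, and 15.6% and 12.1% in the wild-type libraries. These percentages set counts that were not scaled by length side by side, and serve only to compare libraries.

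Among 21 E2F and G1/S regulators, 13 were higher in bone-marrow macrophages than in wild type and 1, E2f3, was lower (median log2 fold 0.81); E2f3 was lost without wild-type library 1 (0.0598) or 2 (0.0589). The 13 higher are 61.9% of the list and the 1 lower 4.76%, against 21.3% and 22.2% of all genes tested. E2f7 and Mybl2 could be tested only through the bone-marrow macrophages. E2f1, an activating factor, had 115, 162 and 66.8 normalised counts in repopulating microglia, 300.1, 263 and 312 in bone-marrow macrophages, and 71.6 and 55.9 in wild-type microglia. E2f8, a repressor that acts later in S phase, had 19.8, 20.7 and 13.8 normalised counts in repopulating microglia, 248, 210.0 and 288 in bone-marrow macrophages, and 18.2 and 13.2 in wild-type microglia. E2f8 showed the larger contrast, 3.91 ± 0.28 against wild type (adjusted p = 2.53e-05), beside 2.18 ± 0.33 for E2f1 (adjusted p = 0.00106). In repopulating against wild-type microglia the 1 gene of 21 that passed (4.76%, against 4.86% of all genes called higher) was Tfdp1, the binding partner of E2F factors, at 0.73 ± 0.16 (adjusted p = 0.0273), a call lost without repopulating library 1 (0.0688), without any 1 library of the other groups (0.0596 to 0.184) or with only the groups compared (0.155); 0 were lower by limma and by edgeR and 1 by DESeq2, with 1 at an unadjusted p under 0.05. Repopulating microglia against bone-marrow macrophages gave 12 lower and 0 higher, also 0 at an unadjusted p under 0.05, by edgeR and by DESeq2. The 12 are 57.1% of the list, against 14.9% of all genes tested called lower and 16% called higher in that comparison. The medians were -0.55 there and -0.17 against wild-type microglia.

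Of 20 genes of the replication stress and damage response, 12 were higher in bone-marrow macrophages than in wild type, with 0 lower (0 also unadjusted, by edgeR and by DESeq2) and a median log2 fold of 1.72. The 12 are 60% of the list, against 21.3% of all genes tested called higher and 22.2% called lower. Brca1, Brca2 and Exo1 could be tested only through the bone-marrow macrophages. Repopulating microglia against bone-marrow macrophages gave 13 lower and 1 higher (65% and 5%, against 14.9% and 16% of all genes tested). That 1 was Cdkn1a, which encodes p21, an inhibitor of S-phase kinases that also binds PCNA. Cdkn1a had 905, 1504 and 478 normalised counts in repopulating microglia, 332, 337 and 398 in bone-marrow macrophages, and 298 and 322 in wild-type microglia. Every repopulating library was above every other library, though the 3 were far apart. Its log2 fold in repopulating microglia was 1.29 ± 0.34 against bone-marrow macrophages (adjusted p = 0.0215) and 1.48 ± 0.38 against wild type (adjusted p = 0.049), and Atm, a damage kinase, was also higher than in wild type (0.84 ± 0.21, adjusted p = 0.0438). These 2 of 20 genes are 10% of the list, against 4.86% of all genes called higher. Both calls against wild type were close to the threshold and were lost in most settings, among them the fits without any 1 bone-marrow or wild-type library (0.0880 to 0.265 for Cdkn1a, 0.0833 to 0.245 for Atm), without repopulating library 2 (0.0527 and 0.0797) and, for Cdkn1a, without library 1 (0.114). The call of Cdkn1a against bone-marrow macrophages was lost without repopulating library 1 (0.0653) or any 1 bone-marrow library (0.0537 to 0.0733). The other 18 genes of the list did not pass between the microglial groups, and the list's median log2 fold was -0.08 there and -1.11 in repopulating microglia against bone-marrow macrophages.

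**Figure D5:**
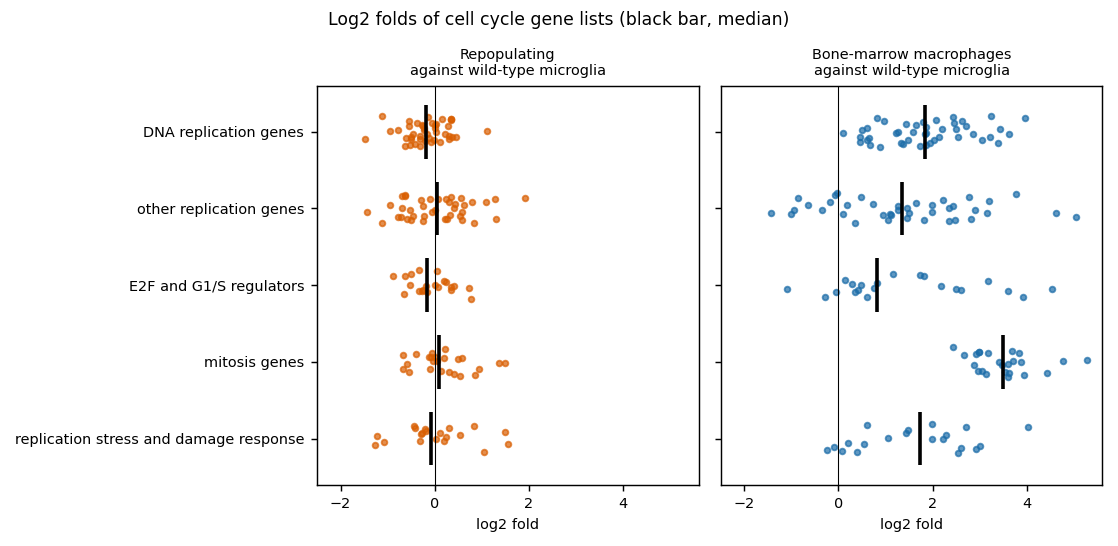
Each point is the log2 fold of 1 gene of a cell cycle list, in repopulating microglia against wild-type microglia (left) and in bone-marrow macrophages against wild-type microglia (right); black bars are medians. The medians lie near 0 on the left, with -0.19 for the DNA replication genes and 0.09 for the mitosis genes, and at 1.84 and 3.50 for these lists on the right.

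Replicates of a group also differed among themselves. In repopulating library 3 the members were lower than in library 2 for 33 of 44, with a median log2 difference of 0.41 between library 2 and library 3. Bone-marrow macrophage library 1 was above library 2 for 39 of 44 (median 0.20), and wild-type library 1 above library 2 for 30 of 44 (median 0.18). Over all genes tested 50.2%, 51.3% and 51.4% lay on the higher side in those 3 pairs. These replicate differences are of the size of the median of -0.19 between repopulating and wild-type microglia, and well below the medians of 1.84 and -2.06 in the comparisons with bone-marrow macrophages.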

How the data were processed

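The TruSeq RNA kit (version 2) used for the libraries does not mark strand, and RNA integrity numbers were above 8, per the labels' protocols. Build mm10 and the tools DESeq 1.14.0, HTSeq, Bowtie2 2.1.0.0 and TopHat2 2.0.10 stand in the submitters' processing notes, and the sources used here give neither their roles nor their settings. Deposited values are a signal that is never negative, namely counts per gene after division by a size factor that the authors took for each library. Of the values above 0, 100% were whole multiples of the smallest in their library (within 0.01), and dividing by it gave back whole reads. Columns named mono were taken as the bone-marrow macrophages by exclusion, and no column was left unused.

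Genes reaching 10 normalised counts in 2 or more libraries were tested on log2(normalised count + 1), in 1 model over the 8 libraries with a variance trend (limma 3.58.1, R 4.3.3), two-sided, with Benjamini-Hochberg adjustment over 11415 genes. These held 99.9% of reads; 7003 genes were at 0 everywhere. edgeR 4.0.16 and DESeq2 1.42.0 were run on the recovered reads. Scripts were tested on simulated data. Errors are SE for log2 folds and SD elsewhere. The added 1 makes folds of low genes too small. Coordinates and exon lengths come from GENCODE vM21 (GRCm38, also called mm10), promoters from RefSeq (GRCm38.p6). Of the members, 12 share over 5% of their exon bases with another gene. Among them are Rfc2 (19.1%), Rfc5 (15.4%), Pole2 (14.4%), Rfc4 (13.4%) and Orc1 (11.9%), whose values carry the same limit as Mcm7. The members and lists were chosen with earlier results of these data known, so they are no independent support for what is already known of them. Named in full were the members with the smallest adjusted p-values in each comparison, at most 10 per direction, and 14 well-known ones (Mcm2 to Mcm7, Pcna, Cdc6, Cdt1, Gmnn, Rrm2, Tyms, Tk1 and Uhrf1); others were added for their position in their complex after their values were seen. Of each other list up to 4 genes were eligible by smallest adjusted p; Mki67 and E2f1 were named after their values were seen. Alternatives were other pseudocounts (0.5 and 5), no filter or a minimum of 50, equal totals, TMM, the count tests, only the groups compared, a replicate block, and leaving out each library.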

Additional observations from a re-analysis of the deposited data

How the results depend on the processing

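Over 18 settings per comparison (17 for Orc1 and Gins3), no log2 fold printed in the text above for a single named gene reversed its sign. This does not cover medians or the folds that are only drawn in figures. In bone-marrow macrophages against wild-type microglia 31 to 41 members were higher when 1 library was left out, 37 with the replicate number as a block and 40 with equal totals, and 29 of the 38 called passed in every setting. In repopulating microglia against bone-marrow macrophages 39 to 43 were lower when 1 library was left out, 43 with the block and 44 with equal totals, and 38 of 41 passed in every setting. Between repopulating and wild-type microglia the number lower was 2 with equal totals, 2 with DESeq2, 0 with only the groups compared and 0 with the replicate block; leaving out 1 library gave 0 to 3 lower and 0 to 1 higher, and 19 members changed sign in some setting. Over all genes, the 983 calls in that comparison fell to 67 without wild-type library 1 and 147 without wild-type library 2, to between 468 and 528 without repopulating library 1 or any 1 bone-marrow library, and reached 2958 without repopulating library 3. With equal totals the median log2 fold of all genes was -0.13 (repopulating against wild type), 0.14 (bone marrow against wild type) and -0.25 (repopulating against bone marrow). In the main fit these medians were -0.02, -0.01 and 0.00. The split of all calls became 440 higher and 729 lower, 3007 and 2068, and 1169 and 2934, from 555 and 428, 2428 and 2532, and 1826 and 1700. The causes were not tested. Deviations from the group mean, in libraries with the same replicate number, had correlations over genes from -0.24 to 0.24. The deviations of the 2 wild-type libraries mirror each other by construction, so this check cannot settle whether the numbers pair the samples. Counts for the other cell cycle lists under the same settings were added after the data were seen; in mitosis genes 23 to 24 were higher in bone-marrow macrophages than in wild type and 0 to 2 were higher in repopulating than in wild-type microglia. Depth limits Orc1, Cdc6 and Mcm10 most, with fewer than 10 normalised counts in most microglial libraries.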
